A study of Sus scrofa with 6 samples.

Results

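Sonic hedgehog signalling was followed through 7 genes in porcine midbrain-like organoids (pMLOs): the secreted ligand SHH, its receptor PTCH1, the transducer SMO, the transcription factors GLI1, GLI2 and GLI3, and HHIP, a surface protein that binds the ligand and takes it away from PTCH1. The genes were taken by symbol. All 7 were present among the 30477 genes of the count tables and all 7 passed the filter on low counts in every comparison below. The organoids came from a single porcine embryonic stem cell line, IVF_1_ pESC_FIW, which was derived from an embryo fertilised in vitro, so differences between animals were not sampled. They were taken for single-cell RNA sequencing on day 11 of culture (D11), day 28 (D28) and day 45 (D45), and each day has replicates A and B, 1 library each. The study calls its single-cell samples biological duplicates, but neither its text nor the labels say what was separate between them, so p-values measure the spread between these libraries, whatever its source. All organoids had been exposed to recombinant SHH early in differentiation, together with SB431542, Noggin and CHIR99021, then to FGF8, and then to FGF8 with BDNF and ascorbic acid. The recombinant SHH had been withdrawn before D11, and the D11, D28 and D45 libraries share this history. Only the D28 and D45 organoids had in addition been embedded in Matrigel and moved, without FGF8, to medium with BDNF, GDNF, ascorbic acid, db-cAMP and DAPT, a blocker of Notch processing, so that this change of medium cannot be told apart from age wherever D11 is compared with a later day.

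Hedgehog signalling works by relief of inhibition. In the absence of ligand, PTCH1 keeps SMO inactive and GLI3, and in part GLI2, is processed to a repressor. When SHH binds PTCH1, SMO becomes active, GLI2 and GLI3 act as activators, and GLI1, PTCH1 and HHIP are transcribed as direct targets, so that receptor and decoy feed back on the ligand. In the ventral midbrain the floor plate along the midline secretes SHH, carries the protease CORIN on its surface and gives rise to dopaminergic neurons.

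Among the members, PTCH1 carried the preferred GLI binding motif near its annotated start. The motif GACCACCCA, read on both strands (TGGGTGGTC on the other), was absent from the 1000 bases before the start of all 7 genes, as it was from nearly all genes, since 0.772% of 19559 protein-coding genes had it there. In a window widened after that result was seen, to 10000 bases after the start, PTCH1 had 3 matches and the other 6 genes had none. Of all protein-coding genes, 7.78% had at least 1 match in this window and 6 genes (0.0307%) had at least 3. The 3 matches are shown on the PTCH1 strand with 10 bases on each side and the motif in capitals, from the RefSeq annotation of Sscrofa11.1, in which PTCH1 lies on the forward strand at chr10:26627165-26703225.
PTCH1, exon outside the coding sequence, chr10:26627256-26627284: tggcgcggcaGACCACCCAcgccgagggc
PTCH1, intron, chr10:26631549-26631577: cctcagccctGACCACCCAagtcgagcag
PTCH1, intron, chr10:26634717-26634745, motif on the opposite strand: gttgcctaccTGGGTGGTCtctctacttt
The matches begin 101, 4394 and 7562 bases after the start, and the last lies 1024 bases before a further annotated PTCH1 start. A match is a description of the letters and no measure of binding.

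After the limits on detected genes and mitochondrial reads, 102940 of 104820 barcodes were kept (the series' own text gives 103310 cells), with 106805311 to 180034791 unique molecular identifiers (UMIs, each counting 1 captured transcript) per library. Cells with at least 1 CORIN UMI, called CORIN cells, made up 37.9% and 38.2% of the D11 cells, 20.04% and 24.7% of the D28 cells, and 2.66% and 4.84% of the D45 cells. The label floor plate held on D11 and less well later. All 6 floor plate markers used here (FOXA1, FOXA2, NTN1, SPON1, LMX1A and FERD3L) were higher in CORIN cells than in other cells on D11, and 5 of 6 (all but LMX1A) on D28 and D45, but their summed level in CORIN cells was 2914 and 2395 UMIs per 1000000 (CPM) on D11, 1236 and 2204 CPM on D28 and 745 and 559 CPM on D45. In other cells the sum was 1003 and 999 CPM on D11, 487 and 588 CPM on D28, and 204 and 305 CPM on D45. On D45, 62.6% and 51.0% of CORIN cells were called on a single CORIN UMI, against 25.8% and 32.7% on D11. Of the D45 CORIN cells, 28.0% and 29.0% carried markers of 2 unlike cell classes, against 0.0180% and 0.0364% on D11. In whole libraries this share also rose, from 0.0136% and 0.0278% on D11 to 9.26% and 14.1% on D45. The samples are labelled as midbrain dopaminergic neurons. The 6 markers of that type summed to 81.3 to 206 CPM in whole libraries with none at 0. Cells sorted into the group of that type by at least 2 of them, with ties between groups left out, made up 1.94% to 9.19% of the cells without CORIN.

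Transcripts of the ligand were most abundant in the D11 organoids. SHH stood at 39.5 and 39.6 CPM on D11 (replicates A and B), at 3.71 and 13.8 CPM on D28 and at 3.70 and 6.08 CPM on D45. Both D11 libraries lay above all later libraries, and the D28 and D45 values overlapped. SHH fell from D11 to D28 (log2 fold change -2.50 ± 0.52, SE, adjusted p = 0.0166, edgeR quasi-likelihood test, 2 libraries per day as in every comparison of days) and from D11 to D45 (-3.41 ± 0.55, adjusted p = 0.00386).

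The transducer and the target GLI1 fell with it. SMO, the membrane protein released by PTCH1, was at 74.1 and 64.5 CPM on D11, 23.8 and 39.6 CPM on D28, and 28.8 and 34.1 CPM on D45. GLI1, the target commonly read as a sign of active signalling, was at 7.27 and 7.43 CPM on D11, 1.99 and 3.53 CPM on D28, and 1.49 and 3.40 CPM on D45. For both genes the D11 libraries stood apart from the rest, while D28 and D45 overlapped. The falls from D11 to D28 were -1.41 ± 0.22 for SMO (adjusted p = 0.00601) and -1.70 ± 0.42 for GLI1 (adjusted p = 0.0293), and those to D45 were -1.54 ± 0.22 (adjusted p = 0.00259) and -1.98 ± 0.43 (adjusted p = 0.0119).

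The receptor and the other target did not follow GLI1. PTCH1 was at 106 and 81.7 CPM on D11, 98.9 and 74.8 CPM on D28, and 153 and 187 CPM on D45. HHIP was at 14.5 and 12.9 CPM on D11, 29.3 and 13.2 CPM on D28, and 15.7 and 34.0 CPM on D45. The D45 libraries had the highest PTCH1, but no comparison of days passed for PTCH1 (largest log2 difference 0.81 ± 0.26, D45 against D28, adjusted p = 0.0928) or for HHIP, whose replicates on D28 and on D45 differed by more than the means of those days.

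GLI2, the main activator, and GLI3, the main repressor, were highest on D45. GLI2 was at 4.35 and 4.82 CPM on D11, 13.8 and 5.25 CPM on D28, and 24.2 and 40.8 CPM on D45, with no overlap between D45 and the earlier days, and rose from D11 to D45 (2.43 ± 0.53, adjusted p = 0.0128). GLI3 was at 33.9 and 25.3 CPM on D11, 43.4 and 40.0 CPM on D28, and 50.4 and 73.8 CPM on D45. Its 3 days did not overlap either, but no test of days passed for it (D45 against D11 0.67 ± 0.26, adjusted p = 0.0883).

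Counted together, 3 of 7 members changed from D11 to D28, beside 23.5% of all genes, none from D28 to D45, beside 9.94%, and 4 of 7 from D11 to D45, beside 35.2%. The member median of the log2 change was -0.35, 0.04 and 0.46, and the median of all genes 0.03, -0.03 and -0.01. For D28 to D45 the count at an unadjusted p under 0.05 was 2 (PTCH1 and GLI2), where 7045 of 22192 genes had such a p, and DESeq2 called the same 2, beside 19.6% of all genes. Leaving out either D11 library ended the D28 calls of SHH (-2.52 and -2.44, adjusted p = 0.0633 and 0.0654) and GLI1 (-1.73 and -1.62, adjusted p = 0.122 and 0.131), which also failed without mitotic cells (-1.39, adjusted p = 0.0653), and leaving out D11 replicate A that of SMO (-1.32, adjusted p = 0.0569). For D45 against D11, GLI1 failed without either D11 library (-1.98 and -1.87, adjusted p = 0.0527 and 0.0665), and GLI2 failed without either of them or without D45 replicate B (2.37, 2.60 and 1.95, adjusted p up to 0.0810).

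**Figure D1:**
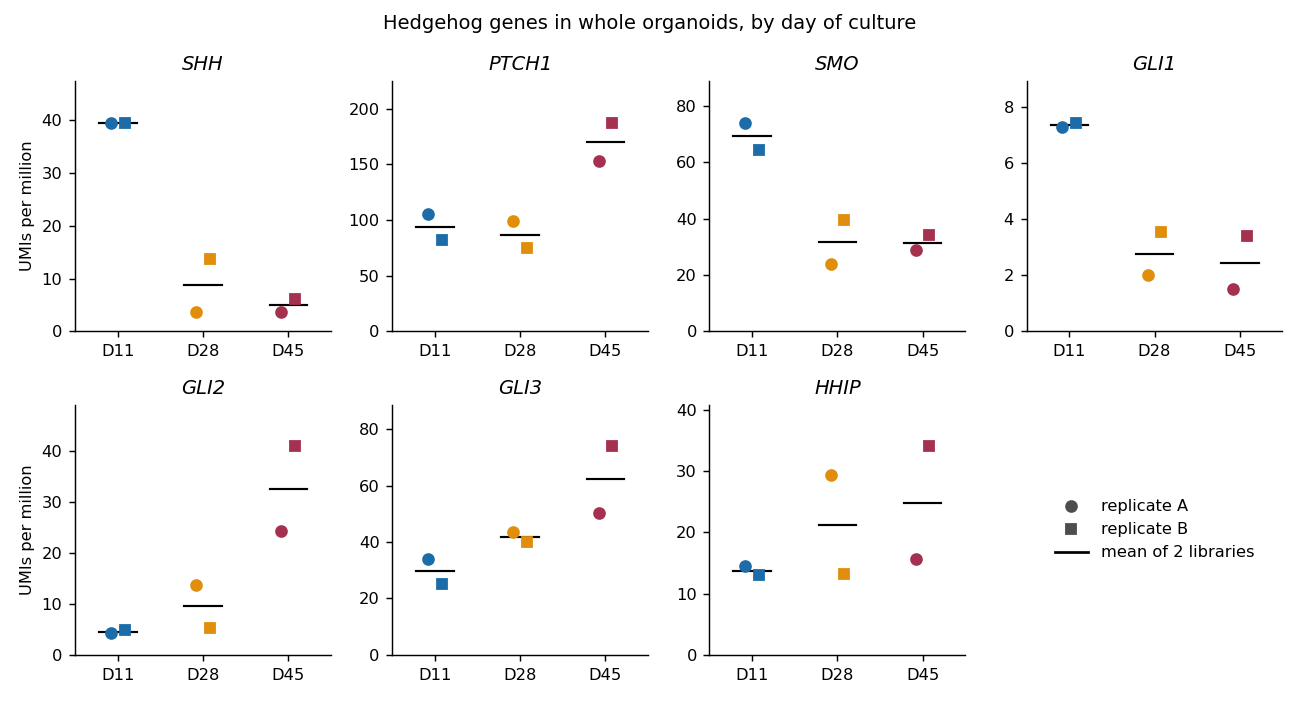
Level of each of the 7 genes in whole organoids, in CPM (vertical axes start at 0), by day of culture. Points are the 2 libraries of a day (circle, replicate A; square, replicate B) and lines their means. SHH, SMO and GLI1 are highest in both D11 libraries, and GLI2 in both D45 libraries.

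The levels came from different cells. Cells were sorted by marker counts into groups, each with at least 3 markers of its kind (2 for the types of neuron), and 10.5% to 72.3% of a group, depending on the type, sat exactly at that limit. A cell was put in a single group, and ties between groups were left out. CORIN cells were kept out of the other groups. These group levels are means over 2 libraries with their SD, and they are descriptions with no test. In whole libraries a change of a gene can come from fewer cells of a kind or from less RNA per cell, which bulk sums cannot tell apart.

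SHH was highest in CORIN cells on D11 (62.05 ± 8.71 CPM). Their mean was also the highest on D28 (15.1 ± 12.5 CPM), but this rested on replicate B. In D28 replicate A they had 6.30 CPM, below the lowest library of cells with progenitor markers (7.35 CPM) and mitotic markers (7.85 CPM). On D11 SHH was lower in cells with mitotic markers (19.2 ± 4.4 CPM) and in cells with dopaminergic neuron markers (2.28 ± 0.25 CPM). By D45 the order had closed up, with 9.13 ± 2.71 CPM in CORIN cells, 7.47 ± 2.13 CPM in cells with neural progenitor markers and 6.79 ± 2.80 CPM in cells with dopaminergic neuron markers, values that do not differ beyond their spread. Cells with oligodendrocyte markers had almost none, with 0.441 ± 0.429 CPM from 7 UMIs in 1283 cells on D45. The share of all SHH UMIs that lay in CORIN cells was 73.4% and 70.0% at D11, 63.6% and 67.7% at D28, and 12.3% and 17.9% at D45. Of all UMIs, CORIN cells held 42.4% and 49.5%, 37.4% and 38.95%, and 6.33% and 9.85%, so their share of SHH UMIs exceeded their share of all UMIs in each of the 6 libraries.

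PTCH1 was highest in cells with fibroblast markers, at 371 ± 70 CPM on D28 and 625 ± 44 CPM on D45. Cells with oligodendrocyte markers (217 ± 43 CPM) and with neural progenitor markers (187 ± 19 CPM) followed on D45 and lay within each other's spread. On D28 the CORIN cells (35.1 ± 3.8 CPM) and the cells with dopaminergic neuron markers (37.5 ± 13.2 CPM) had the lowest PTCH1. SMO was high in dividing and progenitor cells, with 81.6 ± 8.4 CPM in cells with mitotic markers and 76.2 ± 6.5 CPM in cells with progenitor markers on D11, next to 75.9 ± 7.7 CPM in CORIN cells. It was low in cells with GABAergic neuron markers (7.01 ± 1.54 CPM on D45).

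GLI1 was highest in different cell groups on D11 and on D45. On D11 its highest levels were in cells with markers of dopaminergic neurons (17.1 ± 2.1 CPM) and of other neurons (17.3 ± 2.0 CPM), against 6.54 ± 0.36 CPM in CORIN cells and 3.10 ± 0.28 CPM in cells with progenitor markers. On D45 the same neuron groups had 0.534 ± 0.446 and 0.332 ± 0.080 CPM, and GLI1 stood at 20.8 ± 0.5 CPM in cells with fibroblast markers. On D11 the fibroblast group held only 21 cells in the 1 library where it could be measured, with 1 GLI1 UMI and 0 HHIP UMIs. HHIP was likewise highest in groups of neurons on D11 and in cells with fibroblast markers on D45. It was at 41.8 ± 9.2 CPM in cells with dopaminergic neuron markers and 56.5 ± 2.2 CPM in other neurons on D11, at 7.12 ± 3.27 and 8.86 ± 0.69 CPM on D45, and in cells with fibroblast markers at 110 ± 28 CPM on D28 and 126 ± 24 CPM on D45.

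GLI2 and GLI3 were both highest in cells with fibroblast markers on D45, at 215 ± 46 CPM and 250 ± 5 CPM. GLI2 stood next in CORIN cells (81.3 ± 45.7 CPM) and in cells with progenitor markers (35.0 ± 2.3 CPM), and GLI3 in cells with mitotic markers (96.8 ± 9.1 CPM) and CORIN cells (95.7 ± 29.2 CPM). Both were low in cells with oligodendrocyte markers (1.49 ± 0.17 CPM for GLI2 and 14.4 ± 3.6 CPM for GLI3).

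**Figure D2:**
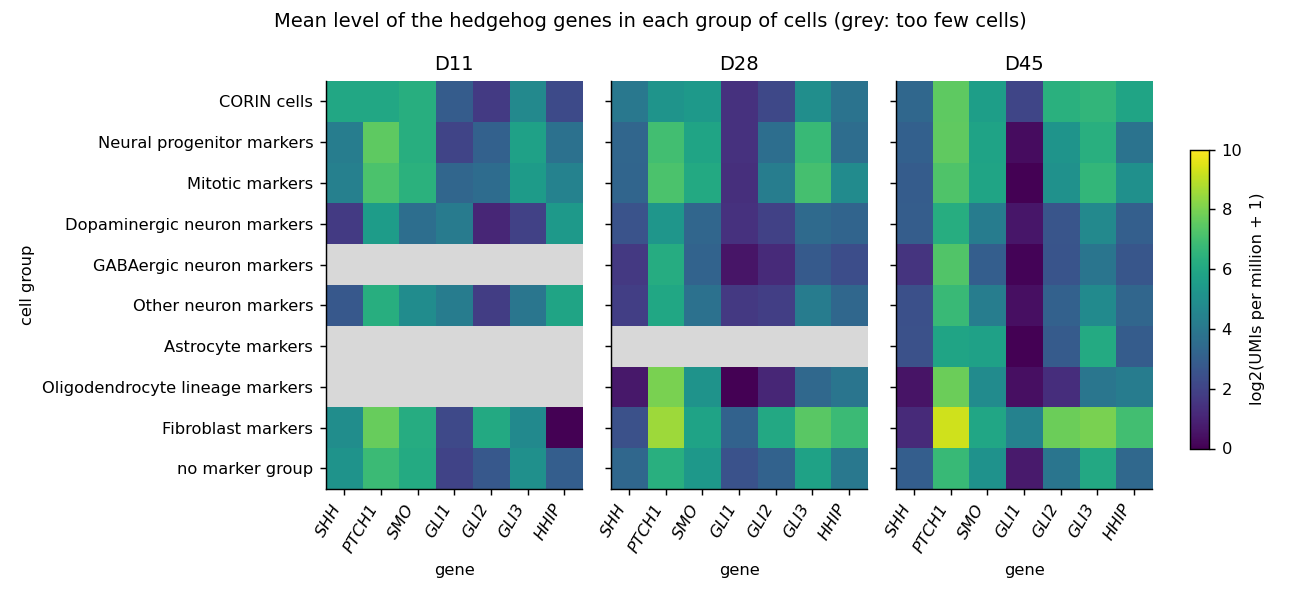
Mean level of each gene on the scale log2(CPM + 1) in CORIN cells and in cells grouped by their markers, by day. Colour runs from 0 (dark) to 10 (yellow), and grey marks groups with too few cells. On D45, PTCH1, GLI2, GLI3 and HHIP are brightest in cells with fibroblast markers, and on D11 SHH is brightest in CORIN cells.

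CORIN cells carried more transcripts of SHH and fewer of PTCH1, HHIP, GLI2 and GLI3 than the other cells of the same library on D11. SHH was at 68.2 and 55.9 CPM in CORIN cells and at 18.3 and 23.6 CPM in other cells, without overlap, a log2 difference of 1.66 ± 0.15 (adjusted p = 0.000186, edgeR, with each library as a block). PTCH1 was at 66.9 and 59.2 CPM against 134 and 104 CPM (-0.82 ± 0.11, adjusted p = 0.00124). HHIP showed the largest gap, at 4.04 and 3.499 CPM against 22.2 and 22.2 CPM (-2.48 ± 0.23, adjusted p = 0.000214). Transcripts of receptor and decoy were lower in the CORIN cells of both libraries, where those of the ligand were higher.

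Among the GLI genes on D11, GLI2 and, weakly, GLI3 were lower in CORIN cells, and GLI1 did not pass. GLI2 was at 2.29 and 2.19 CPM against 5.86 and 7.40 CPM (-1.48 ± 0.20, adjusted p = 0.00138), and the groups did not overlap. GLI3 was at 27.3 and 22.9 CPM against 38.8 and 27.6 CPM (-0.30 ± 0.09, adjusted p = 0.0465), without overlap, although the CORIN cells of replicate A nearly reached the other cells of replicate B. GLI1 was at 6.79 and 6.28 CPM against 7.62 and 8.55 CPM and did not pass (-0.22 ± 0.19, adjusted p = 0.463). SMO was slightly higher, at 81.4 and 70.5 CPM against 68.8 and 58.6 CPM (0.34 ± 0.10, adjusted p = 0.0364), again without overlap. In all, 6 of 7 members passed on D11, beside 24.9% of all genes, with a member median of -0.30 and -0.01 over all genes. Without D11 replicate A the PTCH1 call ended (-0.73, adjusted p = 0.0536), and without either D11 library so did those of SMO (0.34 and 0.32) and GLI3 (-0.19 and -0.43). GLI3 also failed without either D28 library (-0.31 both times, adjusted p = 0.0529 and 0.0595). With each cell thinned to 2000 UMIs, which sets depth equal, SMO (0.19, adjusted p = 0.291) and GLI3 (-0.15, adjusted p = 0.489) did not pass. Thinning also called CORIN cells anew, so the groups changed together with depth. In D11 replicate A, CORIN cells went from 5570 to 2792 and other cells from 9137 to 10250. The GLI3 call was kept in 6 of 18 alternatives and the SMO call in 10 of 18, so both are weak.

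On D28 every member differed between CORIN cells and other cells. The direction was that of D11 for every member, although GLI1 had not passed on D11. SHH was at 6.30 and 23.95 CPM in CORIN cells and 2.16 and 7.28 CPM in other cells, and although replicate B had more of it in both groups, the ratio was alike (1.87 ± 0.17, adjusted p = 9.75e-05). PTCH1 was at 37.8 and 32.4 CPM against 135 and 102 CPM (-1.53 ± 0.11, adjusted p = 3.80e-05). SMO was at 32.1 and 50.1 CPM against 18.9 and 32.9 CPM (0.90 ± 0.10, adjusted p = 0.000247). The PTCH1 groups were far apart, and SMO was higher in the CORIN cells within each library. The SMO call was lost without cells that carried neuron, glia, fibroblast or ciliated markers. SMO was then at 33.5 and 52.0 CPM in CORIN cells against 29.6 and 59.3 CPM, so replicate B had the opposite order.

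Among the GLI genes on D28, GLI1 was at 0.775 and 2.53 CPM in CORIN cells against 2.72 and 4.16 CPM (-0.88 ± 0.26, adjusted p = 0.0245). GLI2 was at 4.73 and 2.18 CPM against 19.2 and 7.21 CPM (-1.68 ± 0.20, adjusted p = 0.000399). GLI3 was at 30.6 and 28.8 CPM against 51.1 and 47.1 CPM (-0.51 ± 0.09, adjusted p = 0.00281). All 3 factors were lower in CORIN cells of both libraries. HHIP was at 15.1 and 10.6 CPM against 37.7 and 14.9 CPM (-0.70 ± 0.21, adjusted p = 0.0302). Thus 7 of 7 members passed, beside 45.8% of all genes, with a member median of -0.70 and -0.03 over all genes. Without D28 replicate A the values of GLI1 (-0.49, adjusted p = 0.148) and HHIP (-0.26, adjusted p = 0.426) did not pass, and HHIP also failed without either D11 library (-0.70 both times, adjusted p = 0.0508 and 0.0502), with no upper limit on detected genes (-0.58) and without mitotic cells (-0.56). At 2000 UMIs per cell 5 of 7 passed, beside 28.0% of all genes, and GLI1 (-1.12, adjusted p = 0.110) and GLI3 (-0.14, adjusted p = 0.490) did not. In D28 replicate A, 16.2% of CORIN cells were sorted into the fibroblast group by their markers, against 1.84% in replicate B.

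**Figure D3:**
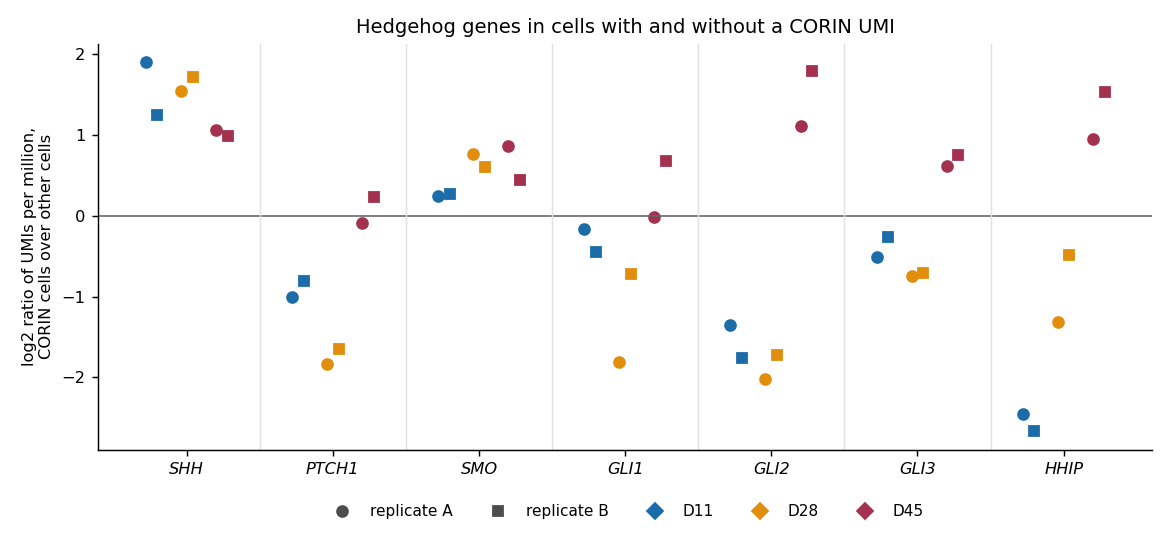
Log2 ratio of CPM in CORIN cells over other cells of the same library, for each gene, by day (colour) and library (circle, replicate A; square, replicate B). Points above the line at 0 are higher in CORIN cells. SHH and SMO lie above 0 in all 6 libraries, whereas GLI2, GLI3 and HHIP lie below 0 on D11 and D28 and above it on D45.

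On D45, GLI2, GLI3 and HHIP were higher in CORIN cells, opposite to D11 and D28, while PTCH1 and GLI1 did not pass. Without cells that carried neuron, glia, fibroblast or ciliated markers, only the HHIP call among these was kept, as given below. SHH was still higher in CORIN cells, at 7.21 and 11.0 CPM against 3.46 and 5.54 CPM (1.15 ± 0.20, adjusted p = 0.00648), and so was SMO, at 49.9 and 44.9 CPM against 27.4 and 32.9 CPM (0.77 ± 0.10, adjusted p = 0.00220). GLI2 was at 49.0 and 114 CPM against 22.6 and 32.9 CPM (1.60 ± 0.18, adjusted p = 0.00113). GLI2 was thus higher in the CORIN cells of both libraries, with no overlap.

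GLI3 was at 75.1 and 116 CPM in D45 CORIN cells against 48.8 and 69.2 CPM (0.81 ± 0.09, adjusted p = 0.00126), and HHIP at 28.6 and 83.2 CPM against 14.8 and 28.6 CPM (1.40 ± 0.22, adjusted p = 0.00412). PTCH1 was at 145 and 217 CPM against 154 and 184 CPM and did not pass (0.20 ± 0.11, adjusted p = 0.242). GLI1, at 1.47 and 5.12 CPM from 11 and 64 UMIs against 1.49 and 3.21 CPM, did not pass either (0.64 ± 0.33, adjusted p = 0.209). The D45 count was 5 of 7, beside 22.5% of all genes, with a member median of 0.81 and -0.03 over all genes. SHH failed without D45 replicate A (1.09, adjusted p = 0.0708) or B (1.07, adjusted p = 0.131), and HHIP without D45 replicate B (0.96, adjusted p = 0.116). The D45 difference of SHH was not seen at 2000 UMIs per cell. There the fewer CORIN cells called at that depth had 0 and 3.57 CPM, from 0 and 2 UMIs, and other cells 3.15 and 4.72 CPM.

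The change between days was tested on the differences themselves. From D28 to D45 the CORIN contrast moved up by 1.73 ± 0.16 for PTCH1 (adjusted p = 0.00170), 3.28 ± 0.27 for GLI2 (adjusted p = 0.00148), 1.32 ± 0.13 for GLI3 (adjusted p = 0.00214) and 2.10 ± 0.31 for HHIP (adjusted p = 0.00667), 4 of 7 members beside 11.3% of all genes. The contrast of SHH differed by -0.72 ± 0.26 (adjusted p = 0.119) and that of GLI1 by 1.52 ± 0.42 (adjusted p = 0.0581), which did not pass. From D11 to D28 it moved for 3 of 7 members, beside 14.4% of all genes, down for PTCH1 (-0.71 ± 0.16, adjusted p = 0.0242) and up for SMO (0.56 ± 0.14, adjusted p = 0.0351) and HHIP (1.78 ± 0.31, adjusted p = 0.0110). Leaving out any D11 or D28 library ended the PTCH1 (-0.59 to -0.82) and SMO (0.51 to 0.63) calls, and leaving out either D11 library that of HHIP (1.89 and 1.68). At 2000 UMIs per cell the PTCH1 change did not pass (-0.34, adjusted p = 0.371), and with no upper limit on detected genes neither that of PTCH1 (-0.61) nor that of SMO (0.57) did. Both also failed without cells that carried neuron, glia, fibroblast or ciliated markers. PTCH1 failed as well without cells with markers of 2 classes, and SMO without mitotic cells or with 2 or more CORIN UMIs. From D28 to D45, HHIP failed without D45 replicate B (1.66, adjusted p = 0.0641). Over D11 to D45 the contrast rose for 4 of 7 members, beside 8.49% of all genes, and these were again PTCH1, GLI2, GLI3 and HHIP. From either earlier day, the changes of PTCH1, GLI2 and GLI3 to D45 did not pass without marker-bearing cells, as given below. When the library term was replaced by day, so that the cell groups of a library were not matched, 1, 3 and 0 members passed in the CORIN contrast on D11, D28 and D45, beside 7.75%, 19.1% and 2.33% of all genes, and 0 in each of its day differences, where at most 0.630% of all genes passed.

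Markers of fibroblasts, connective tissue cells that make collagen, moved with these D45 values. The 6 fibroblast markers (COL1A1, COL1A2, COL3A1, LUM, DCN and PDGFRB) summed to 24.8 and 26.7 CPM in CORIN cells on D11, 949 and 544 CPM on D28, and 1733 and 4064 CPM on D45, with none at 0. In other cells the sums were 13.7 and 18.4 CPM, 1511 and 300 CPM, and 795 and 2206 CPM. The D45 CORIN cells were above the other cells of their library, and 4 of 6 markers passed. Of the D45 CORIN cells, 95 of 535 and 456 of 892 had at least 3 fibroblast markers, whatever other markers they held.

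Within the D45 CORIN cells, PTCH1, the GLI genes and HHIP were higher in cells with those markers. GLI2 was at 192 and 188 CPM in CORIN cells with at least 3 fibroblast markers and at 8.73 and 9.95 CPM in those with fewer. PTCH1 was at 391 and 328 CPM against 75.3 and 63.1 CPM, and GLI3 at 212 and 170 CPM against 36.5 and 41.9 CPM. HHIP was at 66.3 and 130 CPM against 18.0 and 18.6 CPM. Each of these 4 genes was separated without overlap and more clearly than in the comparison of CORIN cells with other cells. The share of all genes so separated was not counted. SMO differed little, at 62.6 and 49.1 CPM against 46.4 and 39.02 CPM. GLI1 was at 6.69 and 8.40 CPM with fibroblast markers and at 0 and 0.574 CPM with fewer. SHH had the opposite order, at 1.82 and 10.5 CPM with and 8.73 and 11.9 CPM with fewer fibroblast markers, and the groups overlapped.

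Cells with at least 3 neuron, glia, fibroblast or ciliated markers were then taken out of both groups. This left 5265 of 5570 and 7759 of 8238 CORIN cells on D11, and 1492 of 2864 and 1880 of 3427 on D28. On D45 it left 150 of 535 and 167 of 892. The D45 calls thus rested on far fewer cells, and depth was not set equal. With this selection the D45 values changed. PTCH1 was then at 68.2 and 61.6 CPM in CORIN cells against 102 and 125 CPM in other cells (-0.66, adjusted p = 0.0223, opposite in direction to the value above), and HHIP at 18.7 and 28.0 CPM against 9.53 and 10.4 CPM (1.39, adjusted p = 0.00830). GLI2 no longer differed by more than its spread, at 15.9 and 15.2 CPM against 14.7 and 18.3 CPM (0.06, adjusted p = 0.935). GLI3 turned to -0.55 (adjusted p = 0.142), at 31.8 and 50.4 CPM against 62.7 and 70.9 CPM. The HHIP call was kept, on 20 and 35 UMIs. The size of the SHH difference was kept as well, but it did not pass. SHH was at 13.1 and 17.6 CPM against 5.96 and 9.09 CPM, from 14 and 22 UMIs in the CORIN cells (1.19, adjusted p = 0.0557), and SMO had 0.48 (adjusted p = 0.0766). On D11 and D28 the same selection kept the calls of SHH (1.32 and 0.91), PTCH1 (-1.05 and -1.71), GLI2 (-1.88 and -1.88), GLI3 (-0.60 and -0.997) and HHIP (-2.23 and -0.85), and ended both SMO calls (0.09 and 0.18). The change of the HHIP contrast to D45 was also kept (2.24 from D28, adjusted p = 0.0300, and 3.62 from D11, adjusted p = 0.00206), while those of PTCH1 (1.05 from D28 and 0.39 from D11), GLI2 (1.95 both times) and GLI3 (0.45 and 0.054) did not pass (adjusted p from 0.0509 to 0.935).

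**Figure D4:**
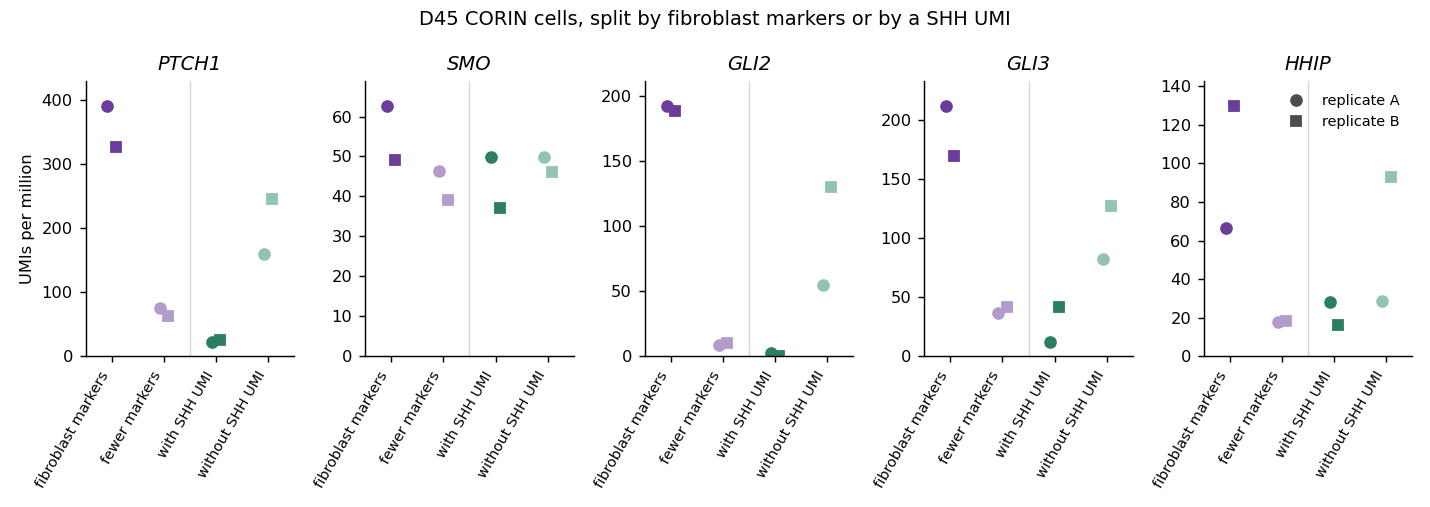
Level of 5 genes, in CPM (axes start at 0), in D45 CORIN cells split by fibroblast markers (left of each line: at least 3 markers, then fewer) or by SHH (right of each line: with, then without a SHH UMI). Circles are replicate A and squares replicate B. PTCH1, GLI2, GLI3 and HHIP are higher with fibroblast markers, PTCH1, GLI2 and GLI3 are lower with a SHH UMI, and SMO changes little.

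At full depth, the levels of these genes differed with the number of CORIN UMIs in a cell. On D11, SHH was at 18.3 and 23.6 CPM in cells without CORIN, 47.4 and 42.4 CPM in cells with a single CORIN UMI, and 79.8 and 66.4 CPM in cells with 5 or more. PTCH1 went the other way, through 134 and 104 CPM, 93.1 and 72.0 CPM, to 54.0 and 50.8 CPM. Both libraries had the same order of these 3 steps for both genes. On D28, PTCH1 was at 135 and 102 CPM without CORIN and 17.2 and 23.7 CPM with 5 or more. HHIP on D11 dropped from 22.2 and 22.2 CPM to 2.39 and 2.31 CPM at 5 or more. On D45 there was no such gradient for PTCH1 (154 and 184 CPM without CORIN, 166 and 170 CPM at 5 or more), and GLI2 ran upward (22.6 and 32.9 CPM to 65.0 and 155 CPM). At 2000 UMIs per cell, with CORIN UMIs counted anew, the step from no CORIN UMI to 1 was still seen on D11. SHH was at 29.8 and 32.6 CPM and then 70.7 and 58.1 CPM, and PTCH1 at 120 and 91.4 CPM and then 56.0 and 57.9 CPM. Among CORIN cells at that depth no order held in both D11 libraries, since at 5 or more CORIN UMIs SHH was at 89.7 and 44.0 CPM, from 21 and 8 UMIs, and PTCH1 at 72.6 and 49.5 CPM. In D28 replicate B, SHH ran from 28.7 CPM at 1 CORIN UMI down to 14.5 CPM, from 4 UMIs, at 3 to 4. In D28 replicate A it ran from 5.19 CPM up to 7.81 CPM, from 1 UMI. CORIN cells held more UMIs in all, with a median of 11662 and 10881.5 in CORIN cells against 10068 and 4469 in other cells on D11, and 13867 and 13567.5 against 2143 and 3817 on D45.

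**Figure D5:**
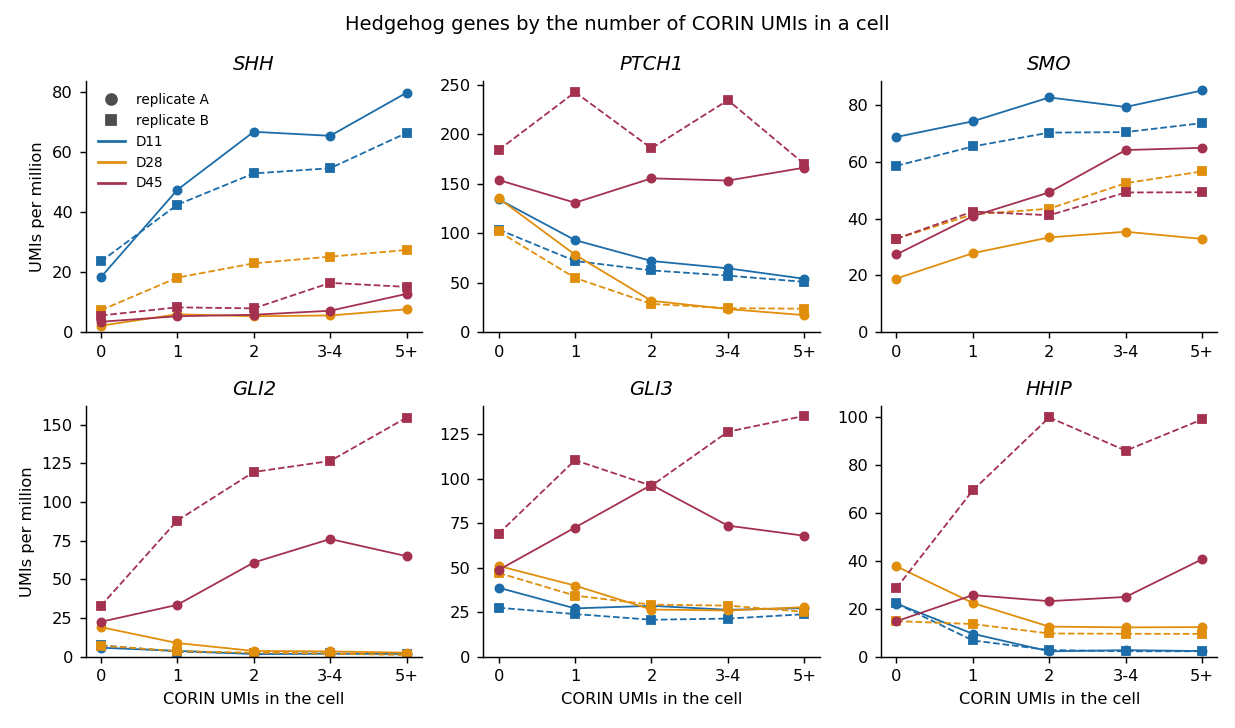
Level of 6 genes, in CPM (axes start at 0), in cells with 0, 1, 2, 3 to 4 or 5 or more CORIN UMIs. Each line is a library (colour, day; circle and solid line, replicate A; square and dashed line, replicate B). Values are at full depth and are not set to equal depth. On D11 SHH is lowest and PTCH1 highest in cells without CORIN, as on D28, and GLI2, GLI3 and HHIP are high in CORIN cells on D45.

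With each cell thinned to 2000 UMIs and shallower cells left out, so that depth was equal, the share of CORIN cells with a SHH UMI was 13.9% and 11.0% on D11, 1.12% and 4.78% on D28, and 0 of 129 cells (which allows a share of up to 2.33% with 3 counts as the limit, and up to 2.82% by the exact 95% interval) and 0.714% (2 of 280 cells, exact 95% interval 0.0866% to 2.56%) on D45. Other cells had 5.53% and 6.03% at D11, 0.468% and 1.59% at D28, and 0.611% and 0.906% at D45. Before thinning, when more cells counted as CORIN cells, the CORIN cell shares were 47.2% and 37.7%, 7.44% and 24.4%, and 6.92% and 8.30%. Intervals and limits cover counting error only. Groups taken here to lack SHH gave 0% (cells with oligodendrocyte markers, D28 replicate B and both D45 libraries) and 0.274% to 0.565% (cells with GABAergic neuron markers) at the same depth. That these groups lack SHH was assumed and not tested. At this depth the D45 shares in CORIN cells could not be told from these. On D11 no such group was large enough to be measured, and the lowest shares there were 1.46% and 0.995%, in cells with dopaminergic neuron markers.

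Within the CORIN cells, between D11 and D28, SHH and 3 other members fell and HHIP rose. The log2 changes were -2.20 ± 0.49 for SHH (adjusted p = 0.0189), -0.92 ± 0.27 for PTCH1 (adjusted p = 0.0478), -1.002 ± 0.177 for SMO (adjusted p = 0.00791), -2.12 ± 0.56 for GLI1 (adjusted p = 0.0337) and 1.71 ± 0.52 for HHIP (adjusted p = 0.0493). These calls made 5 of 7, beside 25.3% of all genes. The library values given above show no overlap between the days for these 5 genes, but the share of all genes without overlap was not counted. The PTCH1 and HHIP calls lay near the threshold and were lost under several other settings of cells and filters, PTCH1 also at 2000 UMIs per cell (-0.57, adjusted p = 0.134). GLI1 failed with no upper limit on detected genes (-2.16, adjusted p = 0.0582) and without mitotic cells (-1.25, adjusted p = 0.167). All 5 failed without either D11 library (SHH -2.10 and -2.31, SMO -0.93 and -1.07, GLI1 -2.10 and -2.15, PTCH1 -0.87 and -0.98, HHIP 1.78 and 1.64), PTCH1 also without D28 replicate B (-0.78) and HHIP without D28 replicate A (1.25). With the replicate letter as a block 3 members passed, beside 17.9% of all genes.

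From D28 to D45, PTCH1 (2.21 ± 0.28, adjusted p = 0.00518), GLI2 (4.39 ± 0.59, adjusted p = 0.00578), GLI3 (1.54 ± 0.27, adjusted p = 0.0131) and HHIP (1.97 ± 0.51, adjusted p = 0.0397) rose in CORIN cells, 4 of 7 beside 19.3% of all genes. Both D45 libraries lay above both D28 libraries for each of them, and the share of all genes with such an order was not counted. GLI3 failed without D45 replicate B (1.14, adjusted p = 0.0504), and HHIP without that library (0.94), without D28 replicate B (1.72) or without either D11 library (1.96 and 1.97). Without the cells that carried neuron, glia, fibroblast or ciliated markers, PTCH1 (1.24, adjusted p = 0.00818), GLI2 (2.57, adjusted p = 0.00895) and HHIP (1.37, adjusted p = 0.0362) still rose, and GLI3 did not pass (0.36, adjusted p = 0.388).

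Over the whole interval from D11 to D45, CORIN cells gained GLI2 (4.96 ± 0.60, adjusted p = 0.00131), HHIP (3.68 ± 0.55, adjusted p = 0.00297), GLI3 (1.70 ± 0.27, adjusted p = 0.00400) and PTCH1 (1.29 ± 0.28, adjusted p = 0.0123), and lost SHH (-2.98 ± 0.53, adjusted p = 0.00580) and SMO (-0.93 ± 0.18, adjusted p = 0.00812). GLI1 did not pass (-1.13 ± 0.59, adjusted p = 0.193). The count was 6 of 7, beside 31.1% of all genes. Without the cells with other markers PTCH1 turned to -0.19 (adjusted p = 0.482) and GLI3 fell short (0.48, adjusted p = 0.219), while GLI2 (2.64, adjusted p = 0.00214) and HHIP (2.87, adjusted p = 0.000960) remained higher. PTCH1 failed without either D11 library or D45 replicate B (0.86 to 1.33), SMO without any D11 or D45 library (-0.87 to -1.003) and at 2000 UMIs per cell (-0.57, adjusted p = 0.159), and SHH without D45 replicate A (-2.67, adjusted p = 0.0592).

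CORIN cells with a SHH UMI were then set against CORIN cells of the same library with none, leaving SHH itself out. A cell with none can still hold SHH transcripts that were not captured. The D11 libraries held 2631 and 3106 CORIN cells with a SHH UMI, the D28 libraries 213 and 836, and the D45 libraries 37 and 74. On D11, HHIP was at 2.35 and 1.88 CPM with SHH and 5.95 and 4.91 CPM without (-1.32 ± 0.30, adjusted p = 0.0483), and PTCH1 at 59.5 and 52.9 CPM against 75.3 and 64.6 CPM (-0.27 ± 0.08, adjusted p = 0.110). HHIP was the only one of 6 genes to pass, beside 3.07% of all genes, and failed without any D11 or D28 library (-1.31 to -1.33), in DESeq2 (-1.33, adjusted p = 0.197) and with 2 or more CORIN UMIs (-0.50). On D28, PTCH1 was at 24.4 and 24.8 CPM against 39.3 and 35.9 CPM (-0.55 ± 0.10, adjusted p = 0.0169), again 1 of 6, beside 2.87%, and failed without any D11 or D28 library (-0.47 to -0.72) and with 2 or more CORIN UMIs (-0.082, adjusted p = 0.942). SMO differed by 0.14 ± 0.08 on D11 and 0.05 ± 0.10 on D28, and did not pass.

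At full depth, the D45 CORIN cells with a SHH UMI had little of the receptor and the GLI genes. Those 37 and 74 cells held more UMIs each (2418448 in all) than the rest of the 535 and 892 CORIN cells (17563356). At 2000 UMIs per cell only 0 and 2 CORIN cells had a SHH UMI, so the split was not fitted at equal depth. The SHH share of D45 CORIN cells there could not be told from that of groups assumed to lack SHH, as given above. PTCH1 was at 21.8 and 25.1 CPM with SHH and 160 and 245 CPM without (-3.11 ± 0.14, adjusted p = 6.53e-06). GLI3 was at 12.1 and 41.4 CPM against 82.8 and 127 CPM (-1.84 ± 0.19, adjusted p = 0.000251). Neither gene overlapped between the groups. HHIP was at 27.9 and 16.3 CPM against 28.7 and 92.9 CPM (-1.65 ± 0.40, adjusted p = 0.0217), and without D45 replicate B the difference was -0.01 (adjusted p = 1). It also failed without any D11 or D28 library (-1.56 to -1.62), in DESeq2 (-1.23, adjusted p = 0.0980), with no upper limit on detected genes (-1.42), with 2 or more CORIN UMIs (-1.45) and with 2 or more SHH UMIs (-1.81). SMO was at 49.7 and 37.0 CPM against 49.97 and 46.1 CPM (-0.15 ± 0.15, adjusted p = 0.567). Thus 3 of 4 fitted genes passed, beside 15.7% of all genes.

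GLI1 and GLI2 were too rare in those cells for a fitted fold change. GLI1 had 0 UMIs in 2418448 with SHH and 75 UMIs in 17563356 without, so that it was at least 3.44-fold lower, with 3 counts over the group as the floor. Of the 75 UMIs, 64 came from replicate B, which alone gave at least 3.12-fold with 3 counts in that library as the floor, while replicate A alone gave no bound, since its 11 UMIs (1.65 CPM) lay below its floor of 3.64 CPM. GLI2 had 3 UMIs (1.24 CPM) against 1783 UMIs (102 CPM), a ratio of 0.0122 (exact 95% interval 0.00252 to 0.0358, counting error only). The D45 cells with SHH also held less of the fibroblast markers (812 and 1285 CPM in sum, against 1847 and 4470 CPM) and of the 6 oligodendrocyte markers (19.4 and 35.1 CPM, OLIG2 at 0, against 478 and 293 CPM), and more of the floor plate markers (1642 and 936 CPM, against 634 and 503 CPM). The part of these marker differences in the gene differences was not tested. The change of the SHH contrast to D45 passed for PTCH1 (-2.56 ± 0.18 from D28, adjusted p = 0.000253), GLI3 (-1.84 ± 0.23, adjusted p = 0.00208) and HHIP (-1.94 ± 0.49, adjusted p = 0.0441), 3 of the 4 genes beside 7.43% of all genes. The HHIP value rested on D45 replicate B, without which it was -0.30 (adjusted p = 0.767), and also failed without any D11 or D28 library (-1.65 to -2.06), in DESeq2 (-1.50, adjusted p = 0.208) and under 7 other settings of filters and cells (-1.42 to -2.21). GLI3 failed without D28 replicate B (-1.75, adjusted p = 0.0518). With the library term replaced by day, PTCH1 (-2.45, adjusted p = 0.0545) and GLI3 (-1.77, adjusted p = 0.365) did not pass from D28, nor did GLI3 from D11 (-1.67, adjusted p = 0.272). From D11 to D45, PTCH1 and GLI3 passed, beside 11.2% of all genes, and from D11 to D28 none of 6 genes did in edgeR, beside 0.173%. At an unadjusted p under 0.05 the latter count was 3, where 1425 of 18449 genes had such a p, and DESeq2 called 0 of the 6 (1 at an unadjusted p under 0.05).

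Across 55 sums of library by cell group, the genes most like each member in log2(CPM + 1) were SLIT2 (Pearson r 0.846), SPON1 (0.819) and PLXDC2 (0.817) for SHH, and ARHGAP10 (0.776), TCF4 (0.763) and LTBP4 (0.753) for PTCH1. SLIT2 is a secreted axon guidance protein and SPON1 a secreted protein of the floor plate. SMO went with REL (0.939), PRKD3 (0.923) and PTBP1 (0.922), and GLI1 with SHC1 (0.833), EBF1 (0.822) and FGF10 (0.777). GLI2 went with COL5A1 (0.882), a collagen, GPC3 (0.859), a glypican that binds hedgehog ligands, and THSD4 (0.845). GLI3 went with WWTR1 (0.927), NKD1 (0.904) and AXL (0.903), and HHIP with NFATC4 (0.841), CD248 (0.823), a stromal surface protein, and CRABP2 (0.778). Among the members, GLI2 and GLI3 were the most alike (0.81), followed by SMO and GLI3 (0.71) and GLI2 and PTCH1 (0.68), while SHH and PTCH1 had -0.16. The sums of a library share its cells' preparation and depth, so these values describe the data and carry no test.

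Of 34 further genes of the pathway, 31 were tested in whole organoids. From D11 to D28, 10 fell and none rose, beside 23.5% of all genes called in either direction, and the falls were led by the proto-oncogene MYCN (-2.82), the endocytic co-receptor LRP2 (-2.81) and SCUBE1 (-2.25), a relative of the proteins that release the ligand. From D28 to D45, 3 fell, beside 9.94%, namely FOXA2 (-2.77), NKX6-1 (-1.08) and PRKACA (-0.85). From D11 to D45, 11 fell and 1 rose, beside 35.2%. The falls were led by the floor plate factor FOXA2 (-4.75), MYCN (-3.03) and the ventral progenitor factor NKX6-1 (-2.81), and OLIG2, the factor of motor neuron and oligodendrocyte progenitors, rose (5.65). As shares of 31 these counts lay near those of all genes. The list's median was -0.31, 0.17 and -0.07, and that of all genes 0.03, -0.03 and -0.01. The other ligands were scarce, with IHH at 0 to 2 UMIs and DHH at 34 to 104 UMIs per library.

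In CORIN cells against other cells, 7 of 31 pathway genes were higher and 8 lower at D11, then 7 and 13 at D28 and 11 and 5 at D45, beside 24.9%, 45.8% and 22.5% of all genes called in either direction, with medians of -0.01, -0.23 and -0.02 beside -0.01, -0.03 and -0.03 over all genes. FOXA2 was the most raised on every day (1.31, 1.51 and 2.10). With it on D11 stood the co-receptor CDON (1.12) and the cyclin CCND2 (0.68), on D28 CCND2 (1.40) and the cilium protein KIF7 (0.52), and on D45 GPC3 (1.55) and CDON (1.41). Lowest were GPC3 (-1.80) and NKX6-1 (-1.38) on D11, next to OLIG2, which had no UMI in the D11 CORIN cells. On D28 they were OLIG2 (-2.38), DHH (-1.78) and MYCN (-1.34), and on D45 OLIG2 (-2.12), MYCN (-1.52) and SCUBE3 (-0.89). Of the 4 pathway genes whose contrast changed from D28 to D45, GPC3 changed most (2.73 ± 0.38, adjusted p = 0.00589). In CORIN cells with SHH against those without, CCND2 was the only one of 29 pathway genes to pass on D11 (0.41) and D28 (0.48), beside 3.07% and 2.87% of all genes. The mitotic markers summed to 1074 and 1062 CPM with SHH on D11, against 689 and 688 CPM without. On D28 they were at 170 and 104 CPM against 169 and 115 CPM. The part of dividing cells in the CCND2 difference was not tested. On D45, beside 15.7%, 3 were higher (FOXA2 1.67, CCND2 1.28 and the kinase CSNK1A1 0.73) and 7 lower, led by GPC3 (-4.81), the cilium protein EVC2 (-1.75) and CDON (-1.74).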

How the data were processed

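Single-cell libraries (GEM-X 3' chemistry) were read from the deposited matrices, whose values are raw UMI counts per gene and cell made by the authors with Cell Ranger on Sscrofa11.1. The authors' later work in Seurat 4.3.0 was repeated here only in its limits on cells. Cells with 200 to 7000 detected genes and at most 10% mitochondrial UMIs were kept, which left 13870 to 21553 cells per library. Doublets were not removed by a caller. Cells with markers of 2 classes were counted and left out in an alternative, and 55 to 119 barcodes were shared between any 2 libraries. No clustering was done.

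UMI counts were summed per library and cell group (at least 20 cells) and tested with edgeR 4.0.16 (quasi-likelihood test, TMM scaling, filterByExpr, Benjamini-Hochberg adjustment over all genes, threshold 0.05). Days were compared without a block, and CORIN and SHH contrasts with each library as a block. Fold changes are on the log2 scale with TMM scaling and differ from ratios of CPM. DESeq2 1.42.0, other scalings, filters, cell limits, thinning to 2000 UMIs per cell, other gates and leaving out each library were the alternatives. After thinning, CORIN and SHH cells were called anew on the thinned counts. The earlier form of the quasi-likelihood test was added after the data had been seen. On simulated counts for 22192 genes in D45 against D11 of whole organoids, 11% of genes changed 2-fold and 71% of those changed 4-fold were found, with 4 false calls. The shares were 67% and 87% with 18 false calls for the CORIN contrast on D11 (21571 genes), 13% and 62% with 11 for D45 against D11 in CORIN cells (19171 genes), and 72% and 93% with 25 for the SHH split on D11 (18449 genes). Each simulation changed 200 genes in a single group and left all others flat. The shares need not hold in the data, where more genes differed. False calls are to be set beside the calls among those 200 genes, not beside all genes tested.

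The members, lists, gates and tests were chosen with earlier results of these data known, and 1 further floor plate marker is not reported here. Named genes are the 7 members, the markers used in checks, up to 3 pathway genes per direction past the threshold with the largest change, and the 3 genes most correlated with each member. Replicate letters were not used to pair the libraries. The correlations of their deviations between days were -0.32, 0.05 and -0.20. They rest on a single difference between replicates per day and cannot show whether a letter marks a shared culture. Intervals are exact binomial or Poisson intervals at 95%, and matched sequences are from RefSeq. Code used Python 3.11.15 and R 4.3.3.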

Additional observations from a re-analysis of the deposited data

Results flagged for a closer look

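The difference between CORIN cells and other cells was not the same on all days, by the test of the difference between days in edgeR. From D11 to D28 it changed by -0.71 for PTCH1 (adjusted p = 0.0242), 0.56 for SMO (adjusted p = 0.0351) and 1.78 for HHIP (adjusted p = 0.0110). From D28 to D45 it changed by 1.73 for PTCH1 (adjusted p = 0.00170), 3.28 for GLI2 (adjusted p = 0.00148), 1.32 for GLI3 (adjusted p = 0.00214) and 2.10 for HHIP (adjusted p = 0.00667). From D11 to D45 it changed by 1.02 for PTCH1 (adjusted p = 0.00841), 3.08 for GLI2 (adjusted p = 0.00103), 1.11 for GLI3 (adjusted p = 0.00326) and 3.88 for HHIP (adjusted p = 0.000908), 4 of 7 members beside 8.49% of all genes. In this last interval PTCH1 failed without D11 replicate A (0.92), D11 replicate B (1.12) or D45 replicate B (0.76), and GLI3 without D11 replicate A (0.99, adjusted p = 0.0588). Without cells that carried neuron, glia, fibroblast or ciliated markers, PTCH1 had 0.39 (adjusted p = 0.266), GLI2 1.95 (adjusted p = 0.0509), GLI3 0.05 (adjusted p = 0.935) and HHIP 3.62 (adjusted p = 0.00206). From D28 to D45, PTCH1, GLI2 and GLI3 also did not pass without those cells, and HHIP failed without D45 replicate B (1.66). From D11 to D28, PTCH1 and SMO failed without any D11 or D28 library, and HHIP without either D11 library.

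The difference between CORIN cells with and without a SHH UMI also changed between days. From D28 to D45 it changed by -2.56 for PTCH1 (adjusted p = 0.000253), -1.84 for GLI3 (adjusted p = 0.00208) and -1.94 for HHIP (adjusted p = 0.0441), the last at -0.30 (adjusted p = 0.767) without D45 replicate B. From D11 to D45 it changed by -2.84 for PTCH1 (adjusted p = 4.40e-05) and -1.70 for GLI3 (adjusted p = 0.00163), 2 of 4 genes beside 11.2% of all genes. From D11 to D28 none of 6 genes passed in edgeR, beside 0.173% of all genes. At an unadjusted p under 0.05, which 1425 of 18449 genes had, there were 3 (PTCH1 -0.28, GLI1 -0.84 and HHIP 1.61), and DESeq2 called 0 of the 6.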

How the results depend on the processing

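Of 100 values of the members, 87.7% of 1149 recomputed values (1008) kept their direction and side of the threshold under other settings, and 2.52% (29) turned direction. With a library left out, 80.6% of 599 values (483) were kept and 24 turned. The cause of these changes was not tested. The lone library of a day is then assumed to vary like the other days. For 18 values that rested on 3 or fewer UMIs in a group no fitted value is given, among them SHH in the thinned D45 CORIN cells and GLI1 in those without marker-bearing cells.

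Counts of members past the threshold changed as follows. The share of all genes called changed between settings too, also with a library left out, so a changed count need not be particular to the members. With no replicate block, 2.33% of all genes were called in the D45 CORIN contrast, in place of 22.5%. In its D45 minus D28 difference 0.0974% were called, in place of 11.3%. DESeq2 called 2 in whole organoids from D28 to D45, in place of 0. With no replicate block (libraries not matched) the CORIN contrast gave 1, 3 and 0 on D11, D28 and D45, its day differences 0, 0 and 0, and the SHH split 0 on D11, 0 on D28 and 2 on D45. With the replicate letter as a block, the whole-organoid counts stayed at 3, 0 and 4, and those in CORIN cells between days were 3, 3 and 6. Without cells with neuron, glia, fibroblast or ciliated markers the D45 CORIN contrast gave 2 and the day differences to D45 gave 1 from D28 and 1 from D11. With no upper limit on detected genes the D28 minus D11 difference gave 1. For CORIN cells from D11 to D28 the count was 3 with no filter, with the earlier form of the test, with a mitochondrial limit of 5% and without mitotic cells, and 2 with no upper gene limit. For the SHH split on D11 it was 0 in DESeq2, with its size factors, with no filter, no upper limit, no mitotic cells or 2 or more CORIN UMIs, 2 with the earlier form or without marker-bearing cells, and 3 with 2 or more SHH UMIs. On D28 it was 0 with no upper limit, no mitotic cells, 2 or more CORIN UMIs or no marker-bearing cells. When thinned, the counts of 0 on D11 and 0 on D28 say nothing of these calls, since HHIP on D11 and PTCH1 on D28 had too few UMIs to be fitted. Over left-out libraries the counts ranged from 0 to 4, 0 to 3 and 2 to 6 in whole organoids (D28 against D11, D45 against D28, D45 against D11), 3 to 6, 5 to 7 and 3 to 5 in the CORIN contrast, 0 to 3, 3 to 5 and 2 to 4 in its day differences, 0 to 5, 2 to 5 and 4 to 6 in CORIN cells between days, and 0 to 2, 0 to 1 and 2 to 3 in the SHH split.

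Values that turned were mostly small. In whole organoids from D28 to D45, HHIP was -0.060 with no upper limit and -0.071 when thinned. In the CORIN contrast GLI1 on D11 was 0.0053 when thinned and 0.26 without marker-bearing cells, where on D45 PTCH1 was -0.66 and GLI3 -0.55. In the D28 minus D11 difference, without marker-bearing cells SHH was -0.41 and GLI2 0.0014, thinned GLI2 was 0.65 and GLI3 0.011, and without mitotic cells GLI1 was 0.18. In D45 minus D28, SHH was 0.28 and SMO 0.30 without marker-bearing cells, and SMO 0.12 when thinned. In CORIN cells from D28 to D45 SMO was -0.018 without cells of 2 classes and -0.078 without marker-bearing cells, and from D11 to D45 PTCH1 was -0.19 without the latter. In the SHH split on D11, GLI1 was -0.33 when thinned and -0.072 without mitotic cells. On D28 SMO was -0.091 with 2 or more CORIN UMIs, -0.092 without marker-bearing cells and -0.00089 with 2 or more SHH UMIs. There GLI3 was 0.0046 in DESeq2, 0.014 with its size factors, 0.013 with the earlier form, 0.0038 at the mitochondrial limit of 5%, 0.047 without mitotic cells, 0.0098 without cells of 2 classes and 0.13 with 2 or more CORIN UMIs.

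Values that turned with a library left out ranged as follows. In whole organoids these were GLI2 from -0.18 to 1.44 and HHIP from -0.43 to 0.95 (D28 against D11), SHH from -1.47 to 0.14, SMO from -0.31 to 0.13, GLI1 from -1.05 to 0.22 and HHIP from -0.67 to 0.94 (D45 against D28), and HHIP from -0.26 to 0.94 (D45 against D11). In the D45 CORIN contrast PTCH1 ranged from -0.075 to 0.33 and GLI1 from -0.0042 to 0.77, and in the D28 minus D11 difference SHH from -0.12 to 0.53 and GLI2 from -0.40 to 0.0038. In CORIN cells between days the ranges were -0.28 to 1.04 for GLI2 and -0.042 to 0.25 for GLI3 (D28 against D11), and -1.36 to 0.36 for SHH, -0.10 to 0.34 for SMO and -0.33 to 2.01 for GLI1 (D45 against D28). In the SHH split GLI1 on D11 ranged from -0.087 to 0.24, SMO on D28 from -0.16 to 0.15, GLI3 on D28 from -0.12 to 0.057 and SMO on D45 from -0.28 to 0.020.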
